A study of Mus musculus with 37 samples.

Results

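Cystatin C (Cst3), cystatin B (Cstb) and the cathepsins Ctsa, Ctsb, Ctsd, Ctsf, Ctsl and Ctsz were followed in astrocytes of the mouse cortex. They were chosen by name, as the rows whose Ensembl identifier maps to these 8 symbols, out of 21975 genes in each table. All 8 were found in both tables and all 8 passed the filter on low values in every comparison. The mice were wild-type males, named CD1 in the methods and CD31 in the labels, and all of them, sham mice included, had a craniectomy and implanted EEG electrodes. Injured mice also received a severe controlled cortical impact (CCI) on one side, and were divided into those with post-traumatic epilepsy (PTE+) and those without it (PTE-). Astrocytes were isolated 4 months after surgery on magnetic beads that bind ACSA-2, an antigen of the astrocyte surface. The ipsilateral cortex gave 5 sham, 10 PTE- and 4 PTE+ libraries, and the contralateral cortex 5 sham, 9 PTE- and 4 PTE+ libraries. Of the 20 mice, 17 gave both hemispheres. Each library came from 1 hemisphere of 1 mouse, and the outcome was assigned from recordings and not at random. The age of the mice was not given in the sources used here.

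Cathepsins are proteases of the lysosome, where proteins taken up or turned over by the cell are cut into peptides. Most of them, among them Ctsb, Ctsf, Ctsl and Ctsz, use a cysteine in the active site, while Ctsd uses aspartates and Ctsa is a serine carboxypeptidase that also protects other lysosomal enzymes. Cystatins are small inhibitors that occupy the active site of cysteine cathepsins. Cystatin C is secreted, and astrocytes are among its main sources in the brain. Cystatin B stays inside the cell, and its loss causes a progressive myoclonic epilepsy in humans. Levels are given as TPM, transcript abundances that are scaled for transcript length and to the same total in each library, and can therefore be compared between genes. TPM keep no sequencing depth, so the number of reads behind a value is unknown.

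Cst3 was among the most abundant transcripts of these cells. It ranked 2 or 3 among all genes in each of the 37 libraries and made up 1.68% to 4.18% of all TPM, from 16757 to 41826 TPM with a median of 26478 TPM. The cathepsins lay far below it. Ctsd had a median of 924 TPM and Ctsb of 695 TPM, ahead of Ctsf with 401 TPM, Ctsl with 384 TPM, Ctsz with 377 TPM and Ctsa with 267 TPM. The ranges of Ctsf, Ctsl and Ctsz overlapped almost fully, at 258 to 592 TPM, 280 to 494 TPM and 271 to 486 TPM. Cstb was the lowest of the 8, with a median of 115 TPM, and also the most variable. Its highest value was 5.94 times its lowest, against 1.71 times for Ctsb and 2.5 times for Cst3. Summed over the 6 cathepsins, TPM ranged from 2262 to 3750, and Cst3 was 6.1 to 14.2 times that sum. Per TPM of the cysteine cathepsins Ctsb, Ctsf, Ctsl and Ctsz, Cst3 had 15.5 ± 4.38 (SD, n = 5), 15.7 ± 2.42 (n = 10) and 13.1 ± 2.69 (n = 4) TPM in ipsilateral sham, PTE- and PTE+ libraries. The contralateral ratios were 14.1 ± 4.76 (n = 5), 13.8 ± 2.05 (n = 9) and 12.9 ± 3.86 (n = 4). All of these ranges overlapped.

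The cell type of the label was checked with marker lists. The 11 astrocyte markers, Slc1a3, Aldoc and Gja1 among them, summed to 16667 to 23275 TPM per library, and none was listed at 0 in any library. The 15 microglia markers summed to 39.6 to 820 TPM, and the single microglia marker with the highest mean was Tyrobp at 44.8 TPM ipsilaterally. The ipsilateral PTE- library of mouse 9_14 stood apart. It had 10727 genes above 0 against 15599 to 18534 in the others, and 10 of the 15 microglia markers were listed at 0 in it. The same library held 899 TPM of Ctsd and 28341 TPM of Cst3, both inside the range of the others. Its 271 TPM of Ctsz was the lowest of all 37 libraries, and its 563 TPM of Ctsb the lowest ipsilaterally. This library also had the highest Ctsl (494 TPM) and Cstb (244 TPM) of all. Other lists were also incomplete in it, with 5 of 8 oligodendrocyte, 3 of 7 neuron, 3 of 4 choroid plexus and 5 of 5 perivascular macrophage markers at 0, while all 11 astrocyte and 5 endothelial markers were above 0. In libraries of many cells, fewer cells of a type and less RNA per cell cannot be told apart.

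Cst3 (ENSMUSG00000027447, chr2:148871722-148875692, minus strand of GRCm38) is the gene that the study singled out in these samples for PTE+ against PTE-, so its direction in that comparison is not independent evidence. The study lists Cst3 as lower in PTE+ in both hemispheres, from raw counts in DESeq2, a test that could not be repeated on TPM. It also reports Cst3 as altered in hippocampal astrocytes of PTE+ mice. In the ipsilateral cortex its TPM were 28384, 19825, 29238 and 22306 in PTE+ mice 8_10, 9_17, 9_18 and 9_19. The 10 PTE- libraries ran from 25770 to 36883 TPM with a median of 28848 TPM. The PTE+ libraries of 9_17 and 9_19 lay below every PTE- library, while those of 8_10 and 9_18 lay inside the PTE- range. The sham libraries held 28858, 37868, 22676, 24088 and 23592 TPM in mice 8_15, 8_16, 9_9, 9_10 and 9_11, and overlapped both injured groups. PTE+ was lower than PTE- by a log2 fold change of -0.26 (SE 0.14, 95% interval -0.56 to 0.04), which missed the threshold with p = 0.0816 and an adjusted p of 0.977 in limma, and p = 0.053 in a two-sided exact permutation test of 4 against 10 libraries. Log2 fold changes are the mean log2(TPM + 1) of the first group minus that of the second, and a gene was called when its unadjusted p was under 0.05 and its fold at least 1.2, the thresholds of the study. In this comparison 0.573% of 10473 tested genes were called, and none of the 8. The count at an adjusted p under 0.05 was 0%, and 63 genes had an unadjusted p under 0.05. These counts over all genes moved with single libraries. Without PTE- mouse 9_14, 197 genes were called in place of 60 here and 416 in place of 161 in PTE- against sham, and without sham mouse 9_11, 1038 in place of 163 in PTE+ against sham.

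In the contralateral cortex Cst3 held 22279, 23178, 16757 and 26478 TPM in PTE+ mice 8_10, 8_17, 9_17 and 9_18. The 9 PTE- libraries ran from 21907 to 30374 TPM with a median of 26878 TPM. All 4 PTE+ values lay below the PTE- median, and the ranges overlapped. The log2 fold change was -0.26 (SE 0.15, 95% interval -0.57 to 0.06), with p = 0.107 and an adjusted p of 0.999 in limma and p = 0.0503 in the exact permutation test. Here 2.79% of 10423 genes were called and none of the 8, and 0% had an adjusted p under 0.05. Mice 9_17, 9_18 and 8_10 entered both hemispheres, so both values share mice. The size of the difference rested largely on mouse 9_17, without which it was -0.16 (p = 0.314) ipsilaterally and -0.13 (p = 0.374) contralaterally in limma. Without mouse 9_18 the ipsilateral value was -0.35 with p = 0.0457 and passed the threshold. The median log2 fold change over all tested genes was 0.12 ipsilaterally and 0.05 contralaterally, and after each library was centred on its median Cst3 stood at -0.34 and -0.32. Under quantile normalization, which gives each rank the same value in every library, the Cst3 difference was 0.00 in both hemispheres, because its rank barely changed.

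**Figure D1:**
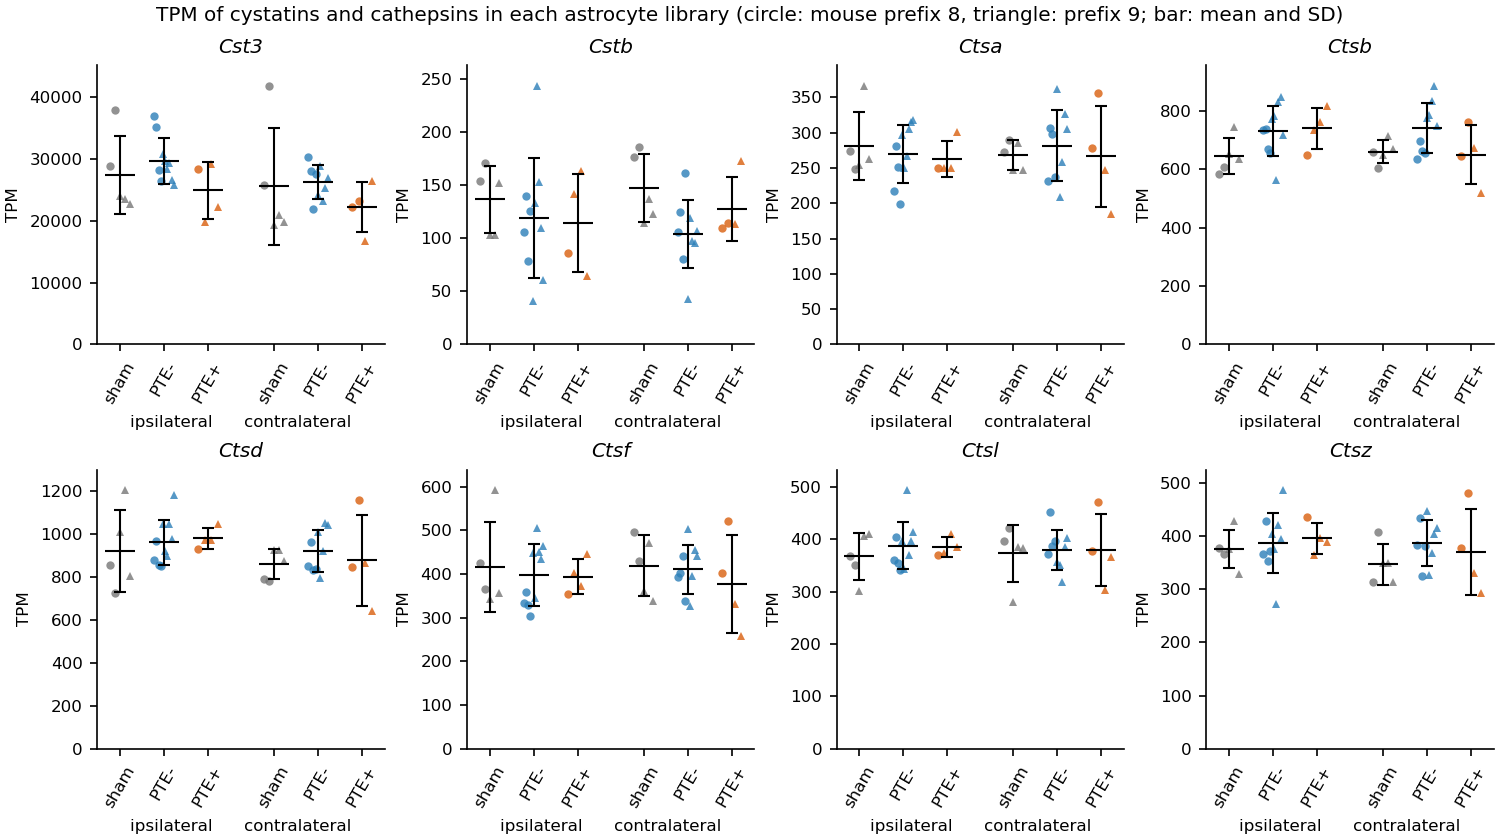
TPM of the 8 genes (vertical axis, linear, from 0) in each of the 37 libraries, by hemisphere and group, with circles for mice of name prefix 8 and triangles for prefix 9, and bars for the mean and SD. Cst3 of prefix 9 sham mice lies between 19340 and 24088 TPM, below both prefix 8 sham mice in either hemisphere, and Cstb has the widest spread for its level.

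The sham mice differed among themselves along the prefix of the mouse name, 8 or 9, whose meaning is not given. In the contralateral cortex sham mice 8_15 and 8_16 held 25832 and 41826 TPM of Cst3, and 9_9, 9_10 and 9_11 held 19886, 19340 and 21006 TPM. The prefixes did not overlap in sham libraries of either hemisphere. PTE- minus sham was therefore -0.29 on the log2 scale among prefix 8 mice (4 against 2) and 0.35 among prefix 9 mice (5 against 3) contralaterally, and -0.08 (4 against 2) and 0.28 (6 against 3) ipsilaterally. The pooled values were 0.10 (SE 0.17, p = 0.59) and 0.13 (SE 0.15, p = 0.383) in limma, neither called. PTE+ minus PTE- had the same sign in both prefixes. It was -0.14 (1 against 4) and -0.27 (3 against 6) ipsilaterally and -0.24 (2 against 4) and -0.28 (2 against 5) contralaterally for prefix 8 and 9. PTE+ minus sham was -0.13 (SE 0.22, p = 0.565) ipsilaterally and -0.16 (SE 0.27, p = 0.57) contralaterally in limma, and again not called.

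The Cst3 levels of both hemispheres of a mouse went together. Over the 17 mice with both hemispheres, ipsilateral and contralateral Cst3 correlated with Pearson's r = 0.842 (permutation p = 3e-05, adjusted p = 0.00024 over 8 genes) and Spearman's rho = 0.765 (p = 0.00067, adjusted p = 0.00536). The relation held without the 2 mice farthest from the median (r = 0.716), within prefix 8 (r = 0.756, 7 mice), within prefix 9 (r = 0.836, 10 mice), and for deviations from the group means (r = 0.827). Cstb behaved alike, with r = 0.796 (permutation p = 0.00037, adjusted p = 0.00148), rho = 0.672 (p = 0.00411, adjusted p = 0.0103), 0.65 without the 2 farthest mice, and 0.906 and 0.766 within prefix 8 and 9. Of the 6 cathepsins, Ctsa (r = 0.546, rho = 0.654) and Ctsb (r = 0.576, rho = 0.642) had adjusted permutation p-values under 0.05 for both coefficients. Ctsl had r = 0.472 and rho = 0.167, neither past the threshold, and r was 0.075 without the 2 farthest mice but 0.533 within prefix 8, 0.83 within prefix 9 and 0.533 for deviations from the group means.

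**Figure D2:**
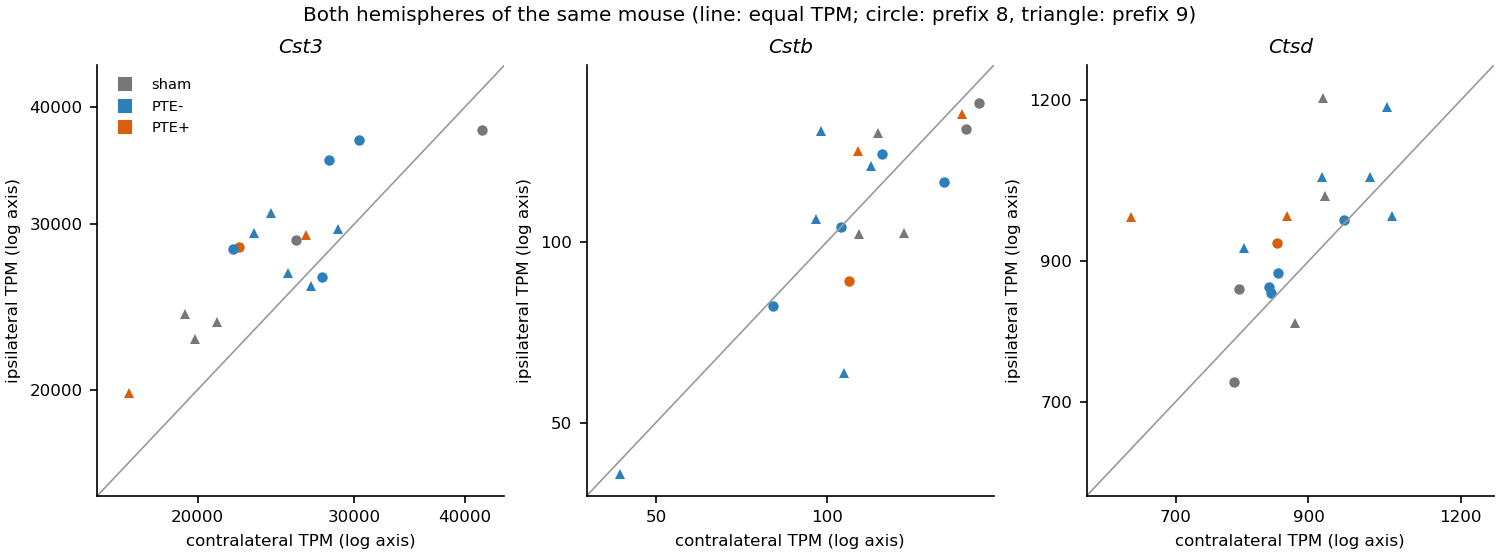
Ipsilateral against contralateral TPM (both log axes) of Cst3, Cstb and Ctsd in the 17 mice with both libraries, coloured by group, with the line of equal TPM. Cst3 points follow the line (r = 0.842) and lie mostly above it, while for Ctsd the PTE+ mouse 9_18 stands off the line with 974 TPM ipsilaterally and 643 TPM contralaterally.

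The ipsilateral level of Cst3 was mostly the higher one. The within-mouse difference of log2(TPM + 1), ipsilateral minus contralateral, was 0.18 ± 0.18 (SD, n = 9) in PTE- mice and positive in 7 of 9. It had p = 0.0192 in limma, an adjusted p of 0.449 and an exact permutation p of 0.0352, but its fold of 1.14 stayed under 1.2, so it was not called. PTE+ mice 8_10, 9_17 and 9_18 differed by 0.35, 0.24 and 0.14, all positive, with p = 0.0761 in limma. The 5 sham mice, which had no impact, differed by 0.14 ± 0.17 and were positive in 4 of 5. The differences in PTE+ and PTE- mice were 0.06 apart (95% interval -0.24 to 0.36), and the difference of PTE- from sham was 0.05 (95% interval -0.21 to 0.30). Neither hemisphere difference was called. Hemispheres were quantified in separate tables, each scaled to the same TPM total.

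The promoter stretch of Cst3 is printed here because the cathepsin promoters that follow are set against it. All promoter sequences are RefSeq's for GRCm38.p6, 5′ to 3′, from 250 bases before RefSeq's gene start to 12 bases after it. For Cst3, Ctsd, Ctsf and Ctsl that start lies inside the annotated gene span given in this text. Any CACGTG, or the longer TCACGTGA that contains it, is in capitals. These are the core and the extended form of the E-box at which the lysosome regulators TFEB and TFE3 are known to bind. Both motifs read the same on either strand. The table of promoters held 6 of the 8 genes, all but Cstb and Ctsb. Cst3 at chr2:148875501-148875762 (minus strand) has neither motif.
Cst3: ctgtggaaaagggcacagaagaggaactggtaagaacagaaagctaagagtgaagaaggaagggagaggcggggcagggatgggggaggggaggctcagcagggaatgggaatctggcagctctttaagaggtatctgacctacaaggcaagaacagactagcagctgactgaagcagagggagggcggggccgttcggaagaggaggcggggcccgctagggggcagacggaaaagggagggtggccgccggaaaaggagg

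Of the 6 genes, 4 (Ctsa, Ctsd, Ctsf and Ctsl) hold CACGTG in the full 300 bases and 2 (Ctsa and Ctsd) hold TCACGTGA. Over all 32851 promoters of the table, 7.15% hold CACGTG and 0.974% hold TCACGTGA. These shares count single promoters, whereas a gene with 2 starts was counted when either start held the motif. The stretches of Ctsa, Ctsd and Ctsf are shown because Ctsa moved most closely with the other 2 by r across libraries, as described below. Ctsz holds neither motif, and had r = 0.454 ipsilaterally and 0.776 contralaterally with Ctsa. Ctsl holds CACGTG, and had r = 0.18 and 0.199 with Ctsd and 0.675 and 0.448 with Ctsf. A relation of the motifs to shared levels was not tested. Ctsa has 2 listed starts. The promoter of the first, chr2:164832622-164832921 (plus strand), spans the annotated gene start at chr2:164832873 and holds neither motif. The second, printed here at chr2:164833523-164833784 (plus strand), lies inside the annotated gene. It holds TCACGTGA starting 13 bases before and again 4 bases after that second start. Ctsd at chr7:142387816-142388077 (minus strand) holds TCACGTGA 99 bases before RefSeq's start. That match lies inside the annotated gene, whose start is chr7:142388038. Ctsd holds CACGTG once more 245 bases before RefSeq's start. Ctsf at chr19:4854915-4855176 (plus strand) holds CACGTG 79 bases before RefSeq's start. The whole Ctsl stretch lies inside the annotated gene. No TCACGTGA of these genes therefore lies before an annotated gene start. A match of letters is a description and no site of binding.
Ctsa: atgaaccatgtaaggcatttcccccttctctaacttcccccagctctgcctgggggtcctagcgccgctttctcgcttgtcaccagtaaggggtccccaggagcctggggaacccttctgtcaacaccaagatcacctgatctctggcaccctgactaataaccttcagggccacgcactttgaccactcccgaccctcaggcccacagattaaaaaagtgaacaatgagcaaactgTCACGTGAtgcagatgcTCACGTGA
Ctsd: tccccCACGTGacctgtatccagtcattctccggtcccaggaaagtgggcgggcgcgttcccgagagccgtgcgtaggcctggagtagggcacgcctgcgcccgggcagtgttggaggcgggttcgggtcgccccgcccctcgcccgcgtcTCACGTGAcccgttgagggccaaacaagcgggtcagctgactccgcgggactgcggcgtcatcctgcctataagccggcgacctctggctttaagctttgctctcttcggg
Ctsf: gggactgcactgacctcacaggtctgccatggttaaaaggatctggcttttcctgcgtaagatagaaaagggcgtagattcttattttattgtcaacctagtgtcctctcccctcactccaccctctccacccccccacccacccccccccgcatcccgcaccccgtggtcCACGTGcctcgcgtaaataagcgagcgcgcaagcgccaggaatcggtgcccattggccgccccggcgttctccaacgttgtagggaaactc

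Cstb (ENSMUSG00000005054, chr10:78425669-78427622, plus strand) was the only one of the 8 genes called between groups, and that in the contralateral cortex. Sham mice 8_15, 8_16, 9_9, 9_10 and 9_11 held 176, 186, 123, 114 and 137 TPM. The 9 PTE- libraries ran from 43.2 to 161 TPM with a median of 106 TPM. Of these, 6 lay below every sham library, and 2 of the 5 sham libraries lay above every PTE- library. Cstb fell by 0.54 on the log2 scale in PTE- against sham (SE 0.23, 95% interval -1.03 to -0.06), with p = 0.0297, an adjusted p of 0.961 in limma and p = 0.048 in the exact permutation test. In this comparison 3.76% of 10564 genes were called and 1 of the 8, and 0% had an adjusted p under 0.05. The call was lost without sham mouse 8_15 (-0.47, p = 0.0776) or 8_16 (-0.45, p = 0.0851), with median centring (-0.42, p = 0.124) and with array weights (-0.46, p = 0.0508) in limma. Over all genes tested in this comparison the median log2 fold change was -0.09, with 346 genes called lower and 51 higher. Within prefixes the difference was -0.65 for prefix 8 (4 against 2) and -0.50 for prefix 9 (5 against 3).

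In the other comparisons Cstb values overlapped widely. Ipsilateral sham libraries held 136.6 ± 31.3 TPM (SD, n = 5), PTE- libraries 119 ± 56.6 TPM (n = 10) and PTE+ libraries 114 ± 46.2 TPM (n = 4). PTE- minus sham was -0.32 (SE 0.31, p = 0.328) and PTE+ minus sham -0.32 (SE 0.27, p = 0.254) ipsilaterally in limma. Of all genes tested in these 2 comparisons 1.54% and 1.56% were called and none of the 8, with 0% past an adjusted p of 0.05 in both. Contralateral PTE+ mice 8_10, 8_17, 9_17 and 9_18 held 110, 115, 114 and 173 TPM of Cstb. They did not differ past the threshold from PTE- (0.34, SE 0.25, p = 0.192) or from sham (-0.20, SE 0.19, p = 0.308) in limma, and in the latter comparison 1.97% of genes and none of the 8 were called, with 0% past an adjusted p of 0.05.

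The 6 cathepsins were close to level between groups. None was called in any of the 6 comparisons of groups, and their log2 fold changes ran between -0.20 and 0.20. Ctsb (ENSMUSG00000021939, chr14:63122462-63145923, plus strand), a cysteine cathepsin with both endopeptidase and carboxydipeptidase activity, had the largest shift of them ipsilaterally. Sham mice 8_15, 8_16, 9_9, 9_10 and 9_11 held 584, 609, 634, 652 and 743 TPM, against 563 to 846 TPM (median 737) in PTE- libraries and 648, 733, 761 and 816 TPM in PTE+ mice 8_10, 9_17, 9_18 and 9_19. All 4 PTE+ libraries and 9 of 10 PTE- libraries lay above the sham median. The log2 fold changes against sham were 0.18 for PTE- (SE 0.10, p = 0.0936, exact permutation p = 0.0726) and 0.20 for PTE+ (SE 0.12, p = 0.137, exact permutation p = 0.0714), under the fold of 1.2. With weights for each library both passed in limma, at 0.27 (p = 0.00318) and 0.26 (p = 0.0227). Calls over all genes also rose under these weights, from 161 to 650 of 10485 and from 163 to 1221 of 10447. Contralaterally Ctsb was 0.16 higher in PTE- than in sham (SE 0.10, p = 0.123) and its PTE+ minus sham value was -0.03 (SE 0.13, p = 0.807) in limma.

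Ctsz (ENSMUSG00000016256, chr2:174427493-174439039, minus strand), a carboxypeptidase of the cysteine class, held 346 ± 38.5 TPM (SD, n = 5) in contralateral sham libraries, 387 ± 42.7 TPM (n = 9) in PTE- and 370 ± 81.2 TPM (n = 4) in PTE+ libraries. Its largest shift between groups was 0.16 for contralateral PTE- against sham (SE 0.10, p = 0.144 in limma), and the ranges overlapped. Ctsl was the most even of the 8 genes across groups, with means from 367 to 388 TPM over the 6 groups. Group means of Ctsa lay between 263 and 282 TPM and those of Ctsf between 378 and 419 TPM. For both genes contralateral PTE+ had the widest spread of its hemisphere, at 266 ± 71.2 TPM for Ctsa and 378 ± 112 TPM for Ctsf (n = 4). None of these 4 cathepsins had a p under 0.05 in any comparison of groups in limma.

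**Figure D3:**
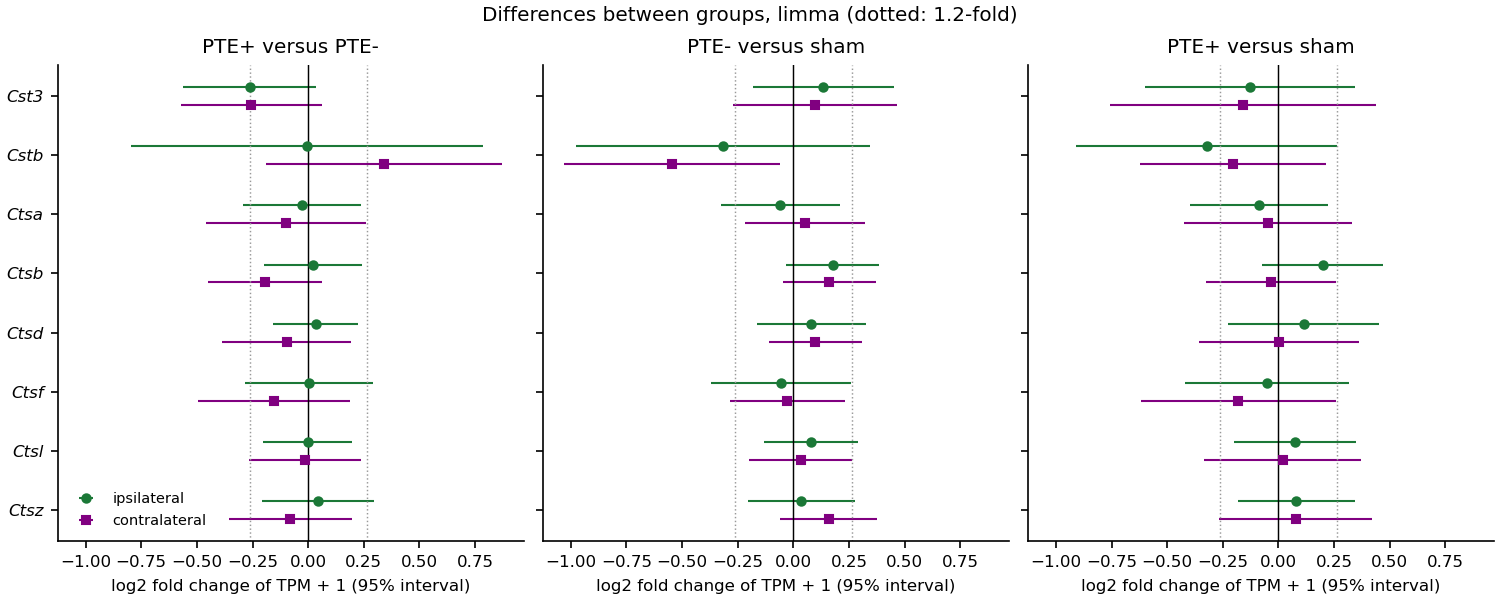
Log2 fold change of TPM + 1 with its 95% interval from limma (horizontal axis) for the 8 genes in the 3 comparisons of groups, circles for the ipsilateral and squares for the contralateral cortex, with dotted lines at a fold of 1.2. Only the contralateral Cstb interval in PTE- against sham (-1.03 to -0.06) leaves out 0 together with a fold past 1.2, and Cst3 in PTE+ against PTE- sits at -0.26 in both hemispheres.

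Ctsd (ENSMUSG00000007891, chr7:142375911-142388038, minus strand), the main aspartic protease of the lysosome, differed by at most 0.11 on the log2 scale between groups of 1 hemisphere. Ipsilateral PTE+ libraries of mice 8_10, 9_17, 9_18 and 9_19 held 929, 975, 974 and 1049 TPM, and the PTE- libraries 851 to 1185 TPM with a median of 946 TPM. PTE+ libraries lay inside the PTE- range (log2 fold change 0.03, SE 0.09, p = 0.72 in limma). Contralateral PTE+ libraries were more spread, with 849, 1159, 864 and 643 TPM in 8_10, 8_17, 9_17 and 9_18, against 796 to 1054 TPM in PTE- (log2 fold change -0.10, SE 0.14, p = 0.49).

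Within PTE+ mice Ctsd was higher ipsilaterally. The difference between hemispheres was 0.13 in mouse 8_10, 0.17 in 9_17 and 0.60 in 9_18, with a mean of 0.30 (SE 0.11, p = 0.0111, adjusted p = 0.999 in limma), so that Ctsd was called. This SE and p come from 1 fit of all 17 mice and pool the spread of the 3 groups. The SD of the Ctsd difference was 0.26 in PTE+, 0.10 in PTE- and 0.21 in sham mice, so the pooled p does not measure the spread of PTE+ mice alone. An exact permutation test over 3 mice cannot go below p = 0.25, which is the value it gave. In this comparison 2.69% of 10519 genes and 1 of the 8 were called, and 0% had an adjusted p under 0.05. Mouse 9_18 decided the size, since without it the mean was 0.15 (p = 0.219 in limma), and the fit without the mouse as a replicate block gave the same 0.30 with p = 0.0575. Ctsz was 0.26 higher ipsilaterally (SE 0.10, p = 0.019) and Ctsb 0.23 higher (SE 0.10, p = 0.0282) in limma, under the fold of 1.2. Mouse 9_18 carried these values too, as Ctsb differed by 0.0044, 0.126 and 0.551 in the 3 mice and without 9_18 Ctsb stood at 0.07 (p = 0.521) and Ctsz at 0.17 (p = 0.177) in limma.

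The contralateral PTE+ library of mouse 9_18 had the lowest TPM of all 37 libraries for 4 of the 8 genes, Ctsa with 185 TPM, Ctsb with 519 TPM, Ctsd with 643 TPM and Ctsf with 258 TPM. Cst3 in the same library was 26478 TPM, the highest of the 4 contralateral PTE+ libraries, and Cstb was 173 TPM, also their highest. Its neuron marker sum of 543 TPM was the highest of the contralateral PTE+ libraries (123 to 543 TPM), its microglia marker sum was 229 TPM (153 to 400 TPM in that group) and its astrocyte marker sum of 17176 TPM the lowest of that group. Their part in the low cathepsin values was not tested. At the other end, ipsilateral sham mouse 9_11 had the highest TPM of all libraries for Ctsa (366), Ctsd (1206) and Ctsf (592), with 53.2 TPM of summed microglia markers and the highest astrocyte marker score of the ipsilateral libraries.

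In PTE- mice the difference between hemispheres of Ctsd was 0.07 ± 0.10 (SD, n = 9) and in sham mice 0.08 ± 0.21 (n = 5). Among PTE- mice 5.99% of 10359 genes were called and none of the 8, and 0.135% had an adjusted p under 0.05. Among sham mice 8.9% of 10601 genes were called and none of the 8, with 0% past an adjusted p of 0.05. The difference of Ctsd between hemispheres was 0.23 larger in PTE+ than in PTE- mice (95% interval -0.03 to 0.49), with p = 0.0776 in limma, an adjusted p of 0.999 and an exact permutation p of 0.0455 over 12 mice. Without mouse 9_18 it was 0.08 (p = 0.543 in limma). Of the 8 genes, 7 had a larger ipsilateral excess in PTE+ than in PTE- mice, with a median of 0.18 against 0.00 over all genes tested, and Ctsf had the largest at 0.31 (95% interval -0.02 to 0.63, p = 0.0607 in limma, exact permutation p = 0.0864). Without mouse 9_18 the median of the 8 was 0.10, Ctsf stood at 0.15, Ctsb at 0.05 and Ctsa at -0.01. None of the 8 was called there, against 2.63% of 10683 genes, and none in the same contrast of PTE- with sham, against 6.49% of 10716 genes, with 0% past an adjusted p of 0.05 in both.

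**Figure D4:**
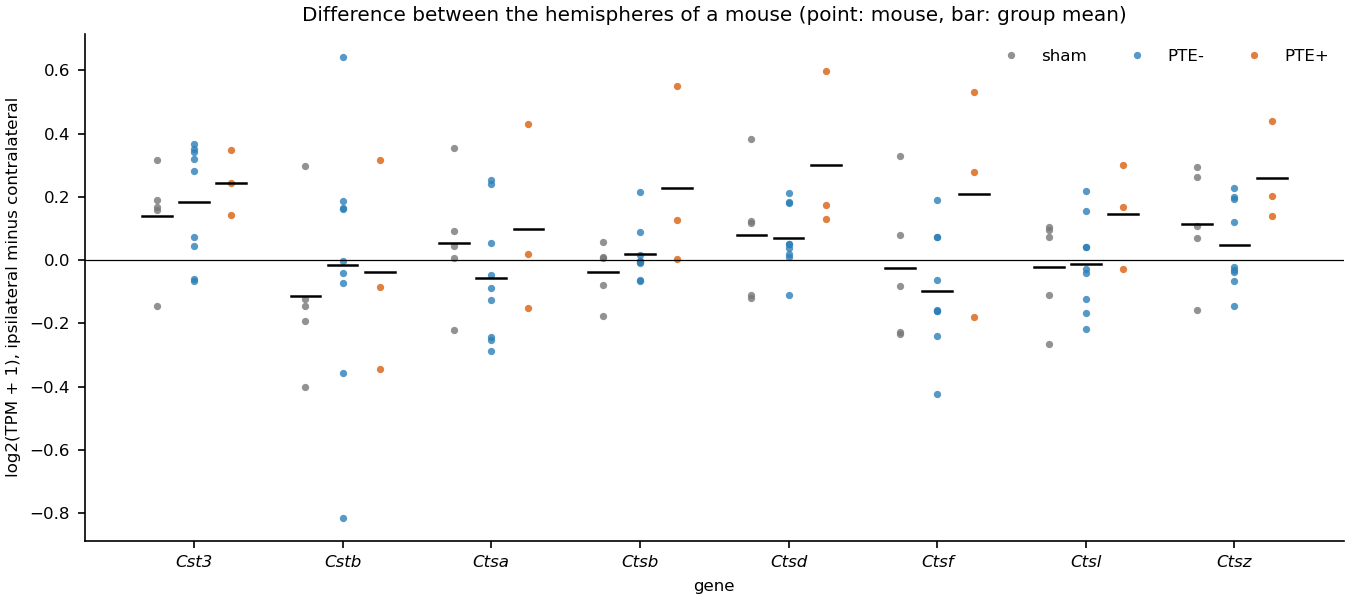
Difference of log2(TPM + 1) between the ipsilateral and contralateral library of a mouse (vertical axis) for the 8 genes, a point for each of 5 sham, 9 PTE- and 3 PTE+ mice and a bar for the group mean. The PTE+ means of Ctsd, Ctsz, Ctsb and Ctsf stand at 0.30, 0.26, 0.23 and 0.21, and Ctsd of mouse 9_18 reaches 0.60.

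By r, Ctsa moved most closely with Ctsf and Ctsd across the libraries of a hemisphere, with the group means taken out. Ctsa (ENSMUSG00000017760, chr2:164832873-164841032, plus strand) and Ctsf (ENSMUSG00000083282, chr19:4855130-4860918, plus strand), a lysosomal cysteine protease, had the closest relation of the 28 pairs. Deviations of log2(TPM + 1) from the group means correlated with r = 0.851 and rho = 0.895 over 19 ipsilateral libraries, each with a permutation p of 1e-05, the smallest the test can give, and an adjusted p of 0.00056 over 56 relations. Contralaterally r was 0.901 (permutation p = 2e-05, adjusted p = 0.00056) and rho 0.833 (p = 4e-05, adjusted p = 0.00112) over 18 libraries. Without the 2 farthest libraries r was 0.762 and 0.846. Ctsa and Ctsd followed with r = 0.77 ipsilaterally and 0.793 contralaterally (permutation p = 0.0002 and 8e-05, adjusted p = 0.00224 and 0.00149), rho = 0.735 and 0.649 (p = 0.00064 and 0.0048, adjusted p = 0.00717 and 0.0217), and r = 0.685 and 0.665 without the 2 farthest libraries. Ctsd and Ctsf had r = 0.675 and 0.683 (adjusted permutation p = 0.00924 for both), falling to 0.453 and 0.335 without the 2 farthest libraries. Their rho was 0.598 and 0.56, with an adjusted permutation p of 0.0302 and 0.0605. Contralaterally Ctsz also moved with Ctsa (r = 0.776) and Ctsd (r = 0.743), against r = 0.454 and 0.595 ipsilaterally. Ctsb and Ctsd had r = 0.557 and 0.746.

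No correlation of a cystatin with a cathepsin passed an adjusted permutation p of 0.05. Cst3 had negative r with Ctsa, Ctsb and Ctsd in both hemispheres, such as -0.349 with Ctsd contralaterally. With Ctsz its r was positive, at 0.08 ipsilaterally and 0.279 contralaterally, and with Ctsf it was -0.293 and 0.002. With Ctsl r was -0.095 ipsilaterally and 0.525 contralaterally (permutation p = 0.0267, adjusted p = 0.0747 for the latter). Cst3 and Cstb correlated contralaterally by rank (rho = 0.761, permutation p = 0.00051, adjusted p = 0.00714), while r was 0.542 (permutation p = 0.0281, adjusted p = 0.075), and ipsilaterally r was 0.181 (p = 0.455). TPM of a library sum to a fixed total, so genes of 1 library are not independent of each other, and r between genes is a property of these libraries.

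Ctsf was lower in libraries with more microglia RNA, and so, less evenly, was Ctsl. Against the microglia marker score, the mean log2(TPM + 1) of the 15 markers, Ctsf had r = -0.749 (permutation p = 0.00024, adjusted p = 0.00384 over 16 relations) and rho = -0.675 (p = 0.00179, adjusted p = 0.0154) ipsilaterally. Contralaterally r was -0.579 (permutation p = 0.0115, adjusted p = 0.046) and rho -0.692 (p = 0.00193, adjusted p = 0.0154). Both were negative within prefix 8 (-0.78 in 7 libraries and -0.722 in 8) and within prefix 9 (-0.754 in 12 and -0.478 in 10), and without the 2 farthest libraries r was -0.589 and -0.58. Ctsl (ENSMUSG00000021477, chr13:64359337-64370890, minus strand), a cysteine endopeptidase, had r = -0.645 ipsilaterally and -0.635 contralaterally (adjusted permutation p = 0.0238 for both). Within prefix 8 its r was 0.147 ipsilaterally and -0.276 contralaterally, against -0.713 and -0.687 within prefix 9. The ipsilateral relation of Ctsl rested on few libraries, as rho was -0.332 (p = 0.165) and r fell to -0.349 without 9_11 and 9_14. Cst3 and Ctsd showed no relation past the threshold, with r = 0.122 and -0.09 ipsilaterally and -0.351 and -0.026 contralaterally, permutation p from 0.152 to 0.917.

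**Figure D5:**
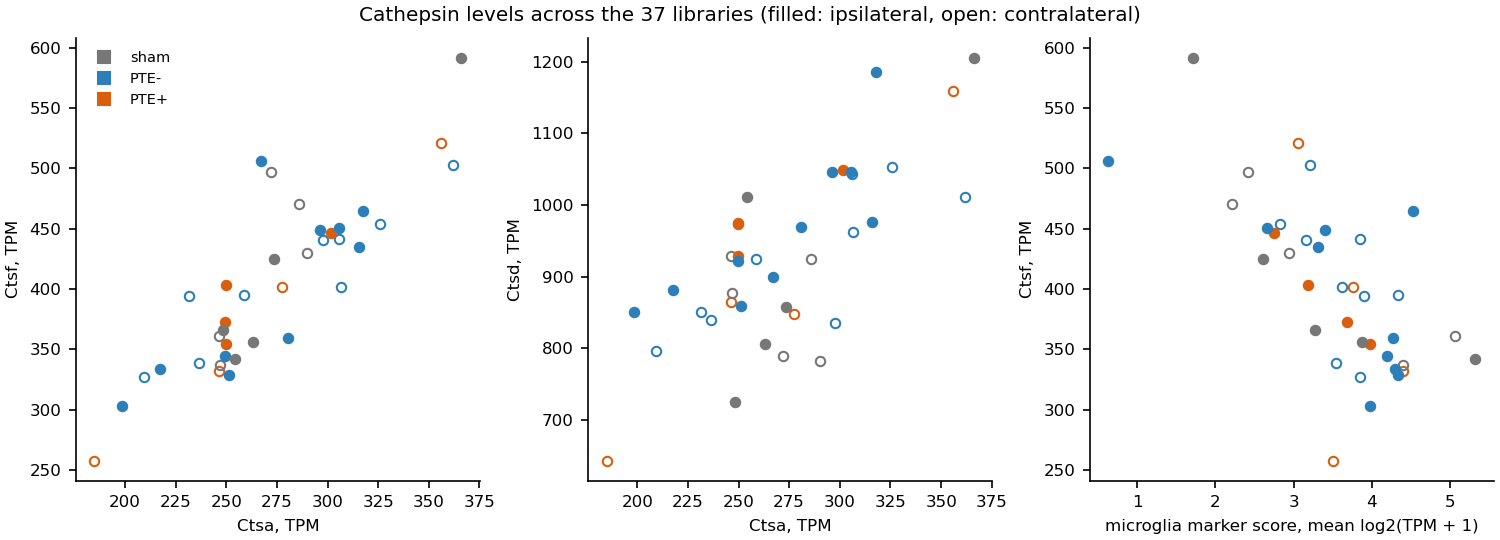
Ctsf against Ctsa and Ctsd against Ctsa in TPM, and Ctsf in TPM against the microglia marker score in mean log2(TPM + 1), over the 37 libraries, filled for ipsilateral and open for contralateral. Ctsa and Ctsf rise together (r = 0.851 ipsilaterally and 0.901 contralaterally for deviations from group means, pooled over the 3 groups). Ctsf is lower where the microglia score is higher (r = -0.749 and -0.579).

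The genes whose levels moved most like each member, by the smaller of the 2 correlations of deviations from the group means among 10412 genes, are given as a description. For Cst3 they were Emc4 (r = 0.717 ipsilaterally and 0.863 contralaterally), Ramp1 (0.716 and 0.863), Tmem50a (0.685 and 0.774), Slirp (0.672 and 0.675) and Prdx2 (0.658 and 0.723). Ctsa and Ctsf had the same nearest gene, Slc7a10, a neutral amino acid transporter that in the brain is found mostly in astrocytes, with r = 0.874 and 0.939 for Ctsa and 0.882 and 0.909 for Ctsf. Ctsb stood nearest to Rpn1 (0.82 and 0.868) and Grm3 (0.819 and 0.821), Ctsd to Pisd (0.857 and 0.865) and Ctsz to Osgin1 (0.868 and 0.824) and Prodh (0.864 and 0.81). Ctsl stood nearest to Ppib (0.79 and 0.797) and Cstb to Apopt1 (0.697 and 0.782).

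The remaining genes of the pathway were read from lists of named genes. Of 14 other cystatins, 7 were listed at 0 in all ipsilateral libraries, and only Cst6 passed the filter, with a mean of 5.38 TPM. Of 10 other cathepsins and related proteases 6 had a mean above 5 TPM, led by Tpp1 with 265 TPM ipsilaterally and 267 TPM contralaterally, Ctso with 190 and 184 TPM and Lgmn, which cleaves cathepsins into their mature form, with 106 and 101 TPM. Ctss, a cathepsin typical of microglia, held 50 and 43.5 TPM and ranged from 0 to 201 TPM ipsilaterally. Among lysosomal hydrolases and cofactors, 28 of 29 had a mean above 5 TPM, with Psap highest at 903 and 762 TPM.

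In PTE+ against PTE-, none of 6 other proteases, 28 hydrolases, 6 sorting genes, 9 membrane genes, 15 subunits of the vacuolar ATPase and 2 regulators tested was called ipsilaterally, where 0.573% of all genes were. Contralaterally, where 2.79% of all genes were called, Ctsh rose by 0.49 (SE 0.23, p = 0.0473) and Atp6ap2, an accessory subunit of the vacuolar ATPase, fell by 0.33 (SE 0.15, p = 0.0358) in limma, both with an adjusted p of 0.999. Within PTE+ mice Atp6ap2 was 0.34 higher ipsilaterally (SE 0.14, p = 0.0268 in limma), the only call among the lysosomal lists there beside that of Ctsd. Its ipsilateral excess was also 0.46 larger in PTE+ than in PTE- mice (SE 0.16, p = 0.011 in limma), where no other gene of these lists was called. In PTE- mice Psap, the precursor of the saposins, was 0.36 higher ipsilaterally (p = 0.0168 in limma), and in sham mice Tmem192, a lysosomal membrane protein, was 0.36 higher (p = 0.0104 in limma). Ctsh (0.54, p = 0.0443) and Arsb (0.42, p = 0.0403), a lysosomal sulfatase, had a larger ipsilateral excess in PTE- than in sham mice in limma. The median log2 difference between hemispheres in PTE+ mice was 0.22 over the 8 genes, 0.10 over 28 hydrolases, 0.15 over 9 membrane genes and -0.01 over all genes tested. Without mouse 9_18 the median of the 8 was 0.10. Tfeb, whose protein activates lysosomal genes, had a mean of 28.2 TPM ipsilaterally and 31.9 TPM contralaterally and was called in no comparison.

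Markers of other cells moved in some of the same comparisons. In contralateral PTE+ against PTE-, all 4 tested endothelial markers had positive log2 fold changes, with Pecam1 called (0.78, SE 0.29, p = 0.0149 in limma) and sums of 615 to 1890 TPM (median 1349) against 400 to 1170 TPM (median 845). All 7 neuron markers were positive, with Stmn2 called (0.64, SE 0.30, p = 0.0491 in limma), and Pf4, the single macrophage marker tested, was called at 0.80. None of 13 microglia markers was called there, and their sums were 153 to 400 TPM in PTE+ and 132 to 375 TPM in PTE-. In the ipsilateral comparison of PTE+ with PTE- none of the tested markers of microglia, neurons, oligodendrocytes or endothelium was called. In ipsilateral PTE- against sham, where Ctsb stood at 0.18, all 7 oligodendrocyte markers had negative values, with Mog (-1.98), Mag (-1.75) and Opalin (-1.34) called. Between the hemispheres of PTE- mice, where Cst3 stood at 0.18, Mog (-1.08), Mobp (-0.87), Mbp (-0.68) and the endothelial Ly6c1 (-0.48) were called lower, and Gad1 (0.31) and Tyrobp (0.49) higher ipsilaterally. In the contrast of PTE+ with PTE- between hemispheres, where Ctsd stood at 0.23, the choroid plexus marker Folr1 was called at -1.66 (p = 0.0369 in limma), and all 14 microglia and all 7 neuron markers had negative values, none called. Within PTE+ mice the ipsilateral library had more Gfap (1.12, SE 0.35, p = 0.00521) and Aqp4 (0.50, SE 0.16, p = 0.00422) in limma than the contralateral one, and 12 of 13 microglia markers and all 4 endothelial markers had negative differences, none called. The part of these cells in the values of the 8 genes was not tested.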

How the data were processed

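Cortical astrocyte RNA was measured in 37 libraries. According to the methods and labels, the authors used SMART-Seq v4 and NovaSeq sequencing, Trim Galore 0.6.4 for trimming, and RSEM 1.2.28 with Bowtie2 2.4.1 on mm10. They deposited TPM per Ensembl gene, 1 table per hemisphere. The annotation release is not given in the sources used here. The authors' own tests used raw counts in DESeq2 1.36.0, and some mice were left out for low correlation or lack of data. TPM keep no depth, so depth per library is unknown and count tests could not be run. Symbols were taken from GENCODE vM21, which matched 21856 identifiers and left 119 unmatched.

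Groups and mice came from the sample labels. Values of log2(TPM + 1) were compared with limma 3.58.1 (R 4.3.3) with a mean-variance trend. Within a hemisphere, each fit used the libraries of the 2 groups compared and those genes whose mean exceeded 5 TPM in either group. Calls needed an unadjusted p under 0.05 and a fold of at least 1.2. Benjamini-Hochberg values over all genes tested stand beside them. Fold changes on this scale understate those of low genes. Single genes were tested by two-sided exact permutation, and correlations with 100000 permutations. Hemispheres were compared on differences within the 17 mice that the labels give both libraries, with the mouse as replicate block. These hemisphere fits held all 3 groups, so every limma SE and p of a hemisphere difference uses a spread pooled over sham, PTE- and PTE+ mice. Libraries of the same mouse deviated together, with a correlation over 10065 genes between 0.0427 and 0.69 (median 0.419), which exceeded 0.1 for 16 mice. The fits of 2 groups within a hemisphere were also run on simulated, independent normal values with the same spread in both groups. That run did not cover the hemisphere fits, array weights, correlated genes or libraries that stand apart. Tables and figures were made in Python 3.11.15 (matplotlib 3.10.9, numpy 2.4.6, pandas 2.3.3, scipy 1.17.1).

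The 8 genes and all lists were chosen with earlier results of these data known. Named beside the 8 were up to 4 called genes of a list, by smallest p, and the genes most like each member by the smaller of both hemispheres' correlations. Gnptg was named because the study lists it. Levels of other listed genes, the relation between hemispheres and values of single libraries were added after the data were seen. Alternatives were a pseudocount of 0.1, a filter at 1 TPM or none, quantile normalization, median centring, array weights, all groups in 1 fit, the mouse prefix as covariate, no replicate block, adjusted p-values, and leaving out single sham and PTE+ mice or PTE- mouse 9_14.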

Additional observations from a re-analysis of the deposited data

Results flagged for a closer look

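In 6 of 48 groups of 4 to 10 libraries, 1 library lay far from the rest by Dixon's criterion, which chance alone meets in about 1 of 20 groups. Cst3 in contralateral sham mouse 8_16 was 41826 TPM, against 19340 to 25832 TPM in the other sham libraries. Cstb in contralateral PTE+ mouse 9_18 was 173 TPM, against 110 to 115 TPM. Ctsa was 366 TPM in ipsilateral sham mouse 9_11, against 248 to 274 TPM, and 301 TPM in ipsilateral PTE+ mouse 9_19, against 249.6 to 249.9 TPM. Ctsl was 494 TPM in ipsilateral PTE- mouse 9_14, the library with the fewest genes above 0, against 341 to 415 TPM. Ctsl was 280 TPM in contralateral sham mouse 9_10, against 384 to 421 TPM.

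Of 16 contrasts of the difference between hemispheres, 1 had an exact permutation p under 0.05. The ipsilateral excess of Ctsd was 0.23 larger on the log2 scale in 3 PTE+ mice than in 9 PTE- mice (exact permutation p = 0.0455), but the sign did not separate the groups, as the difference was positive in all 3 PTE+ and in 8 of 9 PTE- mice, and only PTE+ mouse 9_18 lay above every PTE- mouse.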

How the results depend on the processing

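Of 1104 values of single genes under an alternative, 990 kept direction and side of the threshold, 17 passed it and 8 lost it. In 89 an uncalled value changed sign or fell to 0, and no called value turned its direction. Of the 8 genes, 1 was called in PTE- and 1 in PTE+ against sham ipsilaterally with array weights (Ctsb in both). Over all genes, 650 of 10485 and 1221 of 10447 were called in these 2 weighted fits. Contralateral PTE- against sham gave 0 at an adjusted p and with array weights, and with median centring Cstb lost its call (-0.42, p = 0.124 in limma) while Ctsb gained one (0.28). The comparison of hemispheres in PTE+ mice gave 0 at an adjusted p, 2 with median centring and 0 with no replicate block. The contrast of PTE+ with PTE- between hemispheres gave 2 with median centring and 1 with the mouse prefix as a covariate, while the paired and unpaired fits gave the same 0. The replicate block changed no other count of the 8 genes.

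Leaving out single mice gave 0 to 1 of the 8 genes for PTE+ against PTE- ipsilaterally (Cst3, without 9_18) and contralaterally (Ctsf, -0.32 with p = 0.0498 in limma without 8_17, but 0.01 with p = 0.93 without 9_18). It gave 0 to 1 for contralateral PTE- against sham, 0 to 4 for the hemispheres in PTE+ mice (0 without 9_18, 3 without 9_17, 4 without 8_10), and 0 to 3 for the contrast of PTE+ with PTE- between hemispheres (3 without 8_10: Ctsb, Ctsd and Ctsf). In PTE+ against PTE-, 52 of 10512 genes were called ipsilaterally without 9_18 and 435 of 10519 contralaterally without 8_17. For the hemispheres, the shares of the full fits do not apply once a mouse is left out. Those counts are therefore no result about the 8 genes. Depth is unknown, so counting error could not be separated from the spread of mice. With 4 PTE+ libraries the 95% interval of Cst3 reached from a log2 fold change of -0.56 to 0.04.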
